A study of Mus musculus with 4 samples.

Results

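The CCN family consists of small secreted proteins of the extracellular matrix that act on neighbouring cells. Its members examined here were Ccn1 to Ccn5, taken by their current gene symbols in the platform annotation. The members were chosen with earlier results of these data known, so their counts beside all genes are descriptive. All 5 were measured, among 22180 genes in all, by 6 probe sets that carried a member's symbol alone. Ccn2 had 2 probe sets, which are reported separately, and each other member had 1. RNA came from mouse bone marrow mesenchymal stem cells, plastic-adherent cells of the marrow stroma that are able to make bone, cartilage or fat. The 4 groups were Snail1-WT cells without treatment, Snail1-WT cells given TGF-b1 for 2 h, Snail1-KO cells without treatment, and Snail1-KO cells given TGF-b1 for 2 h. Snail1-WT and Snail1-KO cells differ by genotype at Snai1, the gene of the zinc finger repressor Snail1, and TGF-b1 is a cytokine that signals through SMAD transcription factors. Each group had 1 array, so no difference below has a replicate check and no p-value is given. How Snail1 was removed, how many animals the cells came from and whether cultures were separate are not stated in the labels.

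CCN proteins are called matricellular because they carry signals rather than build the matrix. They are assembled from modules that resemble an insulin-like growth factor binding domain, a von Willebrand factor type C repeat, a thrombospondin type 1 repeat and a C-terminal cystine knot. They bind integrins and heparan sulfate proteoglycans on the cell surface and growth factors such as bone morphogenetic proteins and vascular endothelial growth factor. Ccn1 and Ccn2 are textbook early targets of TGF-b, of serum and of the coactivator YAP, which acts through TEAD factors, and Ccn2 is widely used as a marker of fibrosis.

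Values are RMA log2 values. RMA is the array summary that corrects background, equalises the distributions of arrays and joins probes into probe sets, so a difference of 1 is 2-fold. Levels are compared between arrays for the same probe set and never between genes, since probes differ in their response. Each difference is given with a yardstick, an estimate of the SD that a difference of 2 arrays would have. It was estimated from how far the responses to TGF-b1 of both genotypes disagreed among the 500 genes nearest in level. Culture-to-culture spread common to both arrays of a genotype is therefore not in it, nor is a shift common to both treated arrays. The yardstick was 0.08 for Ccn1, the higher-level probe set of Ccn2, Ccn4 and Ccn5. For Ccn3 it was 0.16, and for the lower-level probe set of Ccn2 0.22. Ranks are among the 13308 genes in the upper 60% by mean level, which had means of at least 4.51. All 5 members were among them.

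Array medians lay between 4.58 and 4.63. Snai1 itself measured 6.69 in untreated and 7.63 in treated Snail1-WT cells, against 5.09 and 5.34 in Snail1-KO cells, the direction the labels give, although the labels do not say which part of the gene was deleted, so the remaining signal is no measure of protein. Of 12 stromal markers 11 were measured and 9 were among the genes kept, with Pdgfrb between 10.66 and 11.59, while the leptin receptor gene Lepr (2.86 to 3.20) and Nt5e (4.23 to 4.62) lay near or below the lowest level kept. The leukocyte gene Ptprc measured 3.15 to 3.78 and the endothelial gene Pecam1 4.40 to 4.80. Other leukocyte markers were higher, with Cd14 at 5.53 to 6.59 and Cd68 at 6.05 to 6.23. Among the genes kept were 4 of 7 measured leukocyte markers, 3 of 5 endothelial markers and 4 of 5 epithelial markers. The summed log2 level of 7 measured leukocyte markers ran from 31.8 to 32.9 and that of 5 endothelial markers from 21.2 to 21.6. No marker of either list was 2-fold apart in a response to TGF-b1 or between genotypes. Of all genes measured, 0.478% were higher and 0.216% lower in the Snail1-WT response, and 0.681% and 0.234% in the Snail1-KO response. Between genotypes 1.13% were apart without and 1.17% with TGF-b1, so these counts of 0 lie near the background.

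Ccn2 encodes connective tissue growth factor, which promotes matrix production by fibroblasts. Its higher-level probe set measured 7.88 in untreated Snail1-WT cells, 10.72 in treated Snail1-WT cells, 6.82 in untreated Snail1-KO cells and 10.64 in treated Snail1-KO cells. Both treated arrays were thus far above both untreated arrays, and the untreated Snail1-KO array was the lowest. TGF-b1 minus untreated was 2.84 (Snail1-WT), a 7.17-fold difference, and 3.82 (Snail1-KO), a 14.1-fold difference. By this probe set Ccn2 ranked 1 of 13308 genes by increase in each genotype. Among the 4 arrays, only the treated ones, which differed by 0.08, lay within 2 yardstick SDs of each other.

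The lower-level probe set of Ccn2 gave another picture. It measured 4.14 in untreated Snail1-WT cells, 5.20 after TGF-b1, 4.91 in untreated Snail1-KO cells and 5.27 after TGF-b1. Untreated Snail1-WT cells were the lowest here, and the other 3 arrays lay within 0.35 of each other, with neighbours closer than 2 yardstick SDs. The response was 1.06 (Snail1-WT) and 0.35 (Snail1-KO), so its order between the genotypes was the reverse of that of the higher-level probe set. The untreated value in Snail1-WT cells was below the lowest mean kept (4.51), which makes uncertain the size of each difference that uses it: the Snail1-WT response, the untreated genotype difference, the difference of responses and their means over both probe sets. Averaged over both probe sets, Ccn2 responded by 1.95 and 2.09. Which part of the gene each probe set covers was not among the sources used here.

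Ccn4, also known as WISP1, was found as a target of WNT signalling and promotes bone formation by stromal cells. It measured 9.10 in untreated Snail1-WT cells, 10.44 after TGF-b1, 8.04 in untreated Snail1-KO cells and 10.19 after TGF-b1. The 4 arrays stood in the same order as for the higher-level probe set of Ccn2, from untreated Snail1-KO to treated Snail1-WT, and each step was larger than 2 yardstick SDs. The response was 1.35 (Snail1-WT), or 2.55-fold, and 2.14 (Snail1-KO), or 4.42-fold. These ranked 39 and 11 among the increases of each genotype.

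Ccn1, also known as CYR61, supports cell adhesion and vessel growth and can drive matrix-producing fibroblasts into senescence. It measured 11.44 in untreated Snail1-WT cells, 12.24 after TGF-b1, 10.51 in untreated Snail1-KO cells and 11.95 after TGF-b1. Its arrays followed the same order again, with every step beyond 2 yardstick SDs. The response was 0.80 (Snail1-WT), or 1.74-fold, and 1.44 (Snail1-KO), or 2.72-fold, with ranks of 176 and 49 among the increases.

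The promoter of Ccn1 is shown because early TGF-b and YAP targets are read through SMAD and TEAD sites and this member differed with both TGF-b1 and genotype. Of the 5 members, 1 matched the RefSeq promoter table of GRCm38.p6. The stretch covers 250 bases before to 50 bases after the gene's start, at chr3:145649936-145650235 on the minus strand, with capitals marking matches to the SMAD letters CAGAC and the TEAD letters GGAATG, on either strand.
Ccn1 promoter: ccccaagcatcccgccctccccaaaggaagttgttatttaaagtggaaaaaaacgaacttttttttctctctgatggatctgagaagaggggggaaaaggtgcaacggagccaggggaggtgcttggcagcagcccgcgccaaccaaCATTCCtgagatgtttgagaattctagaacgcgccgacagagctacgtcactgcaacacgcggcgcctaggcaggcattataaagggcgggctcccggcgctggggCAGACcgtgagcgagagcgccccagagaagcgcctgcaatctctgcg
The TEAD letters occur 1 time, on the strand opposite to the gene, from -103 to -98 relative to the start, and the SMAD letters 1 time, from 4 to 8. Among 32851 promoters of this length in the table, 14.7% hold the TEAD letters and 49.6% the SMAD letters. The Snail E-box CAGGTG, the AP-1 letters TGACTCA and the CArG box read by serum response factor were not in this window, and 20.2%, 5.20% and 1.63% of the promoters hold them. The motifs searched do not overlap here, and a match of letters is no measurement of binding.

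Ccn5, also known as WISP2, lacks the cystine knot module of the other members and is known to oppose Ccn2 in fibrosis. It measured 10.29 in untreated Snail1-WT cells, 10.42 after TGF-b1, 9.77 in untreated Snail1-KO cells and 10.33 after TGF-b1. The untreated Snail1-KO array stood below the other 3, and neighbours among these 3 differed by less than 2 yardstick SDs. The response was 0.13 (Snail1-WT), or 1.10-fold, and 0.57 (Snail1-KO), or 1.48-fold, which was 1.62 and 6.92 yardstick SDs.

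Ccn3, also known as NOV, restrains the growth of many cells and counters Ccn2 in models of fibrosis. It measured 6.76 in untreated Snail1-WT cells, 6.41 after TGF-b1, 6.71 in untreated Snail1-KO cells and 6.33 after TGF-b1. Both treated arrays were below both untreated arrays. The response was -0.36 (Snail1-WT) and -0.38 (Snail1-KO), or 1.28-fold and 1.30-fold lower, which was 2.29 and 2.41 yardstick SDs. Neighbours in the order of the 4 arrays were less than 2 yardstick SDs apart. Ccn3 was the 1 member with a response below 0, and 54.8% of the genes kept were below 0 (Snail1-WT) and 53.8% (Snail1-KO). Ccn6, the remaining mouse family member and outside the rule, measured between 4.09 and 4.33 on the 4 arrays, below the lowest mean kept, and no order can be read from it.

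**Figure D1:**
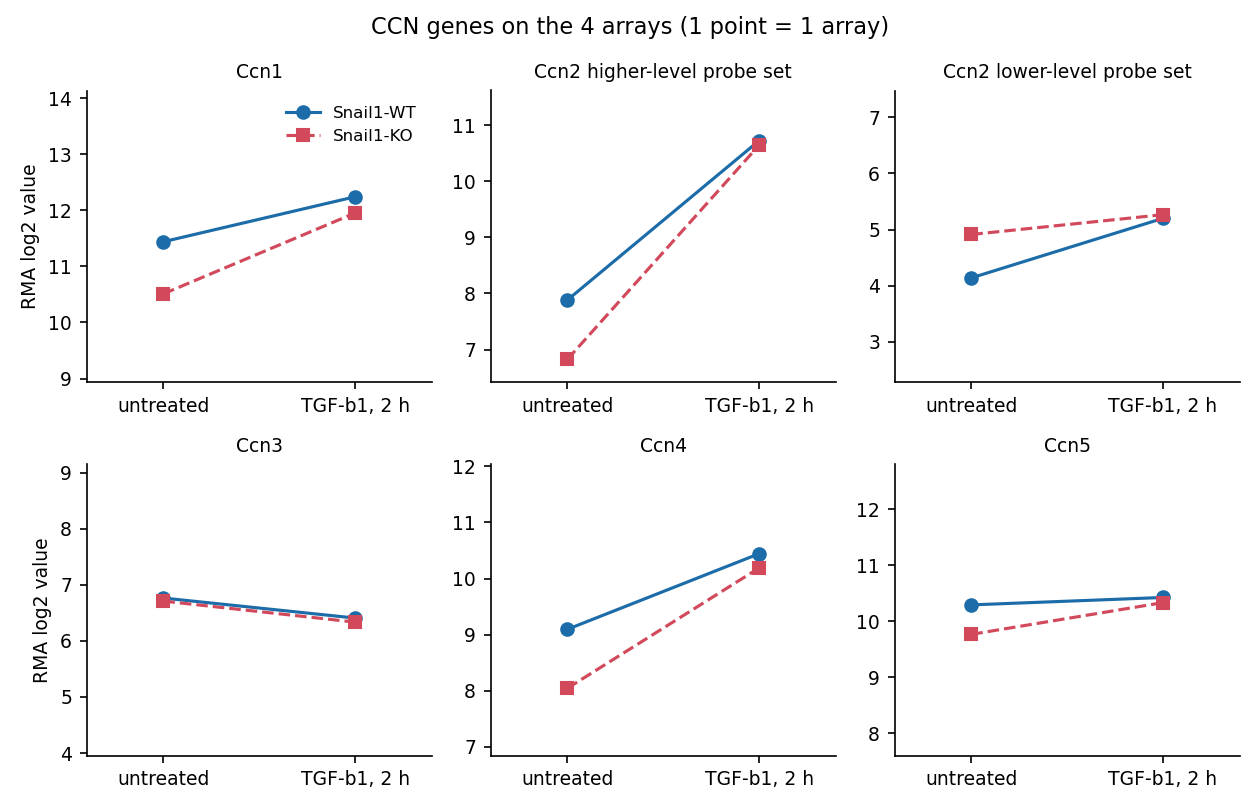
RMA log2 value (vertical axis, the same number of units in each panel) of each Ccn probe set in untreated cells and after 2 h of TGF-b1, with 1 point per array, circles for Snail1-WT and squares for Snail1-KO cells. For Ccn1, Ccn4 and the higher-level probe set of Ccn2 the untreated Snail1-KO array is the lowest. Their treated arrays differ by 0.29, 0.25 and 0.08. The lower-level probe set of Ccn2 is lowest in untreated Snail1-WT cells.

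With Ccn2 counted by its higher-level probe set, at least 2-fold higher after TGF-b1 were 2 of the 5 members in Snail1-WT cells, Ccn2 and Ccn4, where 0.714% of the genes kept were 2-fold higher. In Snail1-KO cells there were 3, Ccn1, Ccn2 and Ccn4, where 0.999% of the genes kept were. No member was 2-fold lower, where 0.271% of the genes kept were in the first and 0.308% in the second response. The median response over the 5 members was 0.80 (Snail1-WT) and 1.44 (Snail1-KO), beside medians of -0.03 and -0.02 over the genes kept. Whether more cells responded or each cell made more RNA cannot be told apart in bulk samples.

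**Figure D2:**
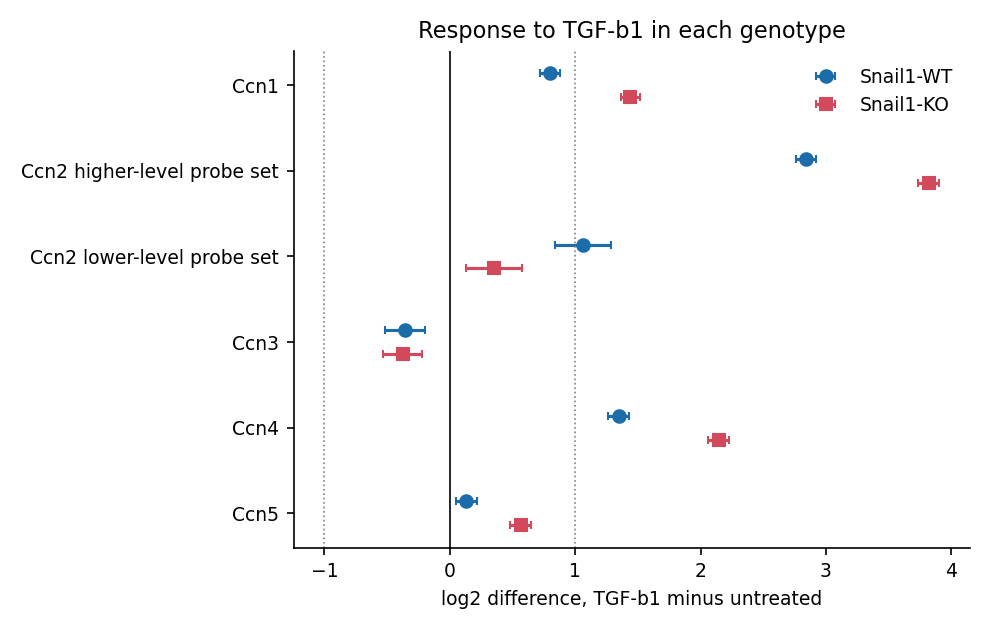
Log2 difference between treated and untreated arrays (horizontal axis) for each Ccn probe set in Snail1-WT (circles) and Snail1-KO cells (squares), where bars are 1 yardstick SD either side, the solid line is no difference and dotted lines are 2-fold. The higher-level probe set of Ccn2 lies at 2.84 and 3.82, Ccn4 at 1.35 and 2.14, and Ccn3 lies below 0 in both.

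Without TGF-b1, Ccn1, Ccn4, Ccn5 and the higher-level probe set of Ccn2 were lower in Snail1-KO than in Snail1-WT cells. Snail1-KO minus Snail1-WT was -1.06 for the higher-level probe set of Ccn2, or 2.08-fold lower, and -1.05 for Ccn4, or 2.07-fold lower. It was -0.93 for Ccn1, or 1.90-fold lower, and -0.53 for Ccn5, or 1.44-fold lower. These differences were between 6.42 and 12.9 yardstick SDs, but the yardstick leaves out culture-to-culture spread common to both arrays of a genotype. Ccn3 differed by -0.05, which is within 1 yardstick SD. At least 2-fold lower were 2 of the 5 members, Ccn4 and, by its higher-level probe set, Ccn2, where 0.744% of the genes kept were 2-fold lower. By decrease, Ccn2 by its higher-level probe set ranked 85, Ccn4 87, Ccn1 121 and Ccn5 580 of 13308 genes. The lower-level probe set of Ccn2 went the other way, at 0.77, and the mean of both probe sets of Ccn2 was -0.14. Both values rest in part on the untreated Snail1-WT level of 4.14, which lay below the lowest mean kept, so their size is uncertain. In the same comparison 8 of the 11 stromal markers measured were below 0, at a median of -0.26 beside 0.01 over all genes measured, and their summed log2 level was 88.9 (Snail1-WT) and 87.1 (Snail1-KO). None of the 11 was 2-fold apart, where 1.13% of all genes measured were, so this count of 0 lies near the background. With TGF-b1 6 of the 11 were below 0, with a median of -0.18 beside -0.02. The part of this shift in the genotype differences of the CCN genes was not tested.

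With TGF-b1 the genotype differences of Ccn1, Ccn4, Ccn5 and the higher-level probe set of Ccn2 were smaller than without. Snail1-KO minus Snail1-WT was -0.29 for Ccn1 and -0.25 for Ccn4, or 1.22-fold and 1.19-fold lower, which was 3.65 and 3.08 yardstick SDs. It was -0.08 for the higher-level and 0.06 for the lower-level probe set of Ccn2, -0.09 for Ccn5 and -0.07 for Ccn3, each at most 1.12 yardstick SDs. Culture-to-culture spread common to both arrays of a genotype is not in the yardstick here either. No member was 2-fold apart, where 1.70% of the genes kept were. The range over the 5 members was -0.29 to -0.07 with TGF-b1 and -1.06 to -0.05 without.

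**Figure D3:**
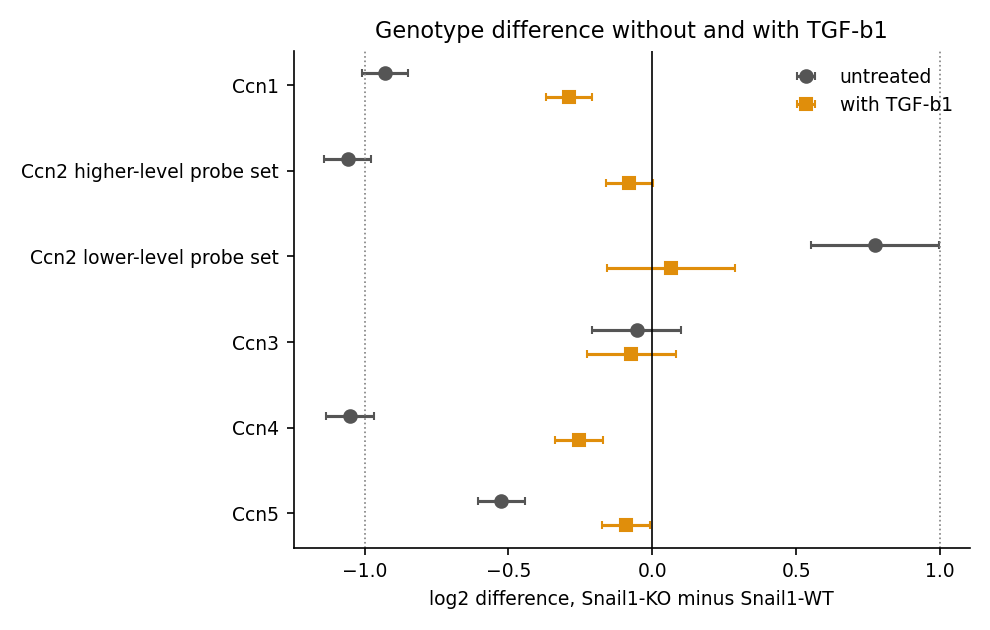
Log2 difference between Snail1-KO and Snail1-WT arrays (horizontal axis) for each Ccn probe set without (circles) and with TGF-b1 (squares), where bars are 1 yardstick SD either side, the solid line is no difference and dotted lines are 2-fold. Ccn1, Ccn4 and the higher-level probe set of Ccn2 lie between -1.06 and -0.93 without TGF-b1 and between -0.29 and -0.08 with it. The lower-level probe set of Ccn2 lies at 0.77 without it. The bars leave out culture-to-culture spread common to both arrays of a genotype.

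The response of Snail1-KO cells minus that of Snail1-WT cells was 0.98 for the higher-level probe set of Ccn2, 0.80 for Ccn4, 0.64 for Ccn1 and 0.43 for Ccn5. These values were 8.43, 6.83, 5.70 and 3.75 times the spread of the same quantity among genes of like level. Ccn2 by its higher-level probe set ranked 17, Ccn4 43, Ccn1 159 and Ccn5 581 of 13308 genes by this difference. Ccn3 differed by -0.02 and the lower-level probe set of Ccn2, with the limit given above, by -0.71. No member was 2-fold apart in this respect, where 0.338% of the genes kept were. The larger response in Snail1-KO cells and the smaller genotype difference with TGF-b1 are the same arithmetic on the same 4 arrays, and the untreated Snail1-KO array enters both the response and the untreated genotype difference. They are therefore not separate observations. The absolute genotype difference was smaller with TGF-b1 than without in 4 of the 5 members and in 47.7% of the genes kept.

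The genes whose pattern over the 4 arrays was nearest to that of a member were found by the root mean square distance between log2 values centred on each gene's mean. Nearest to the higher-level probe set of Ccn2 were Pmepa1, whose product limits SMAD activation, at a distance of 0.34, the zinc finger gene Egr2 at 0.35 and the SMAD co-repressor gene Skil at 0.43, followed by the hyaluronan synthase gene Has2 and the EGF receptor ligand gene Hbegf at 0.48 and 0.53. The 5 differed in the treated genotype comparison. Has2 differed by -0.92 and Egr2 by -0.56 there (Snail1-KO minus Snail1-WT), Hbegf by -0.47, Pmepa1 by 0.05 and Skil by 0.55. Nearest to Ccn4 were the cytokine gene Il6 at 0.14, the transcription factor gene Runx1 at 0.16 and the inhibitory SMAD gene Smad7 at 0.19, then Pdzrn3 and Ppp1r13l, both at 0.21. Nearest to Ccn1 were the actin-regulating gene Mical2 at 0.08, the endothelin gene Edn1 and the repressor gene Bach2, both at 0.12, the prostaglandin synthase gene Ptgs2 at 0.13 and Boc at 0.13. Among the members, Ccn1 and Ccn4 were nearest to each other, at 0.32, and Ccn2 and Ccn3 farthest apart, at 1.88. With 4 arrays these distances describe the pattern and carry no test.

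**Figure D4:**
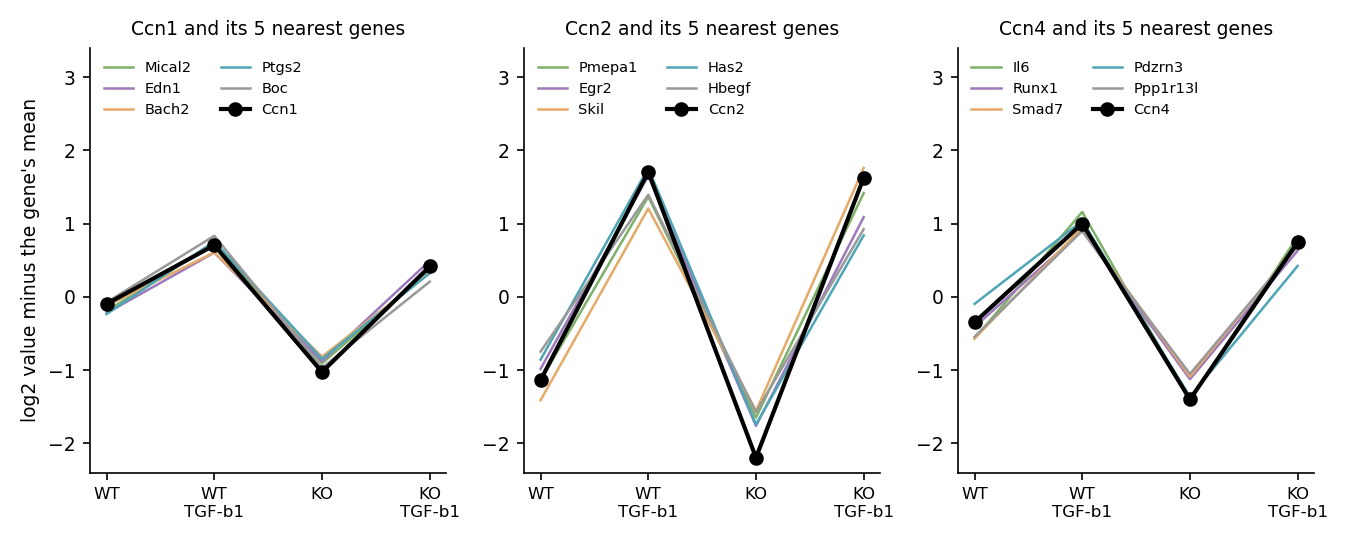
Log2 value minus each gene's mean over the 4 arrays (vertical axis) on each array (horizontal axis) for Ccn1, Ccn2 (higher-level probe set) and Ccn4, in black with points, and the 5 genes nearest to each, in colour. The nearest genes were chosen on these same 4 values, at distances of 0.08 to 0.13 for Ccn1, 0.34 to 0.53 for Ccn2 and 0.14 to 0.21 for Ccn4.

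The members lie on chromosomes 3 (Ccn1), 10 (Ccn2), 15 (Ccn3 and Ccn4) and 2 (Ccn5) in the RefSeq gene order of GRCm38.p6. Among the 10 nearest genes kept on either side of a member, none was 2-fold apart in either response. Ranges were -0.11 to 0.47 in Snail1-WT and -0.27 to 0.59 in Snail1-KO cells. Of the genes kept, 0.714% were 2-fold higher and 0.271% lower in the first response and 0.999% and 0.308% in the second. A count of 0 of 10 lies near these shares. In the untreated genotype comparison 2 of the 10 were 2-fold apart, Enpp3 beside Ccn2 at 1.13 and Ndrg1 beside Ccn4 at 1.05. There 209 of 13308 genes kept were. Both were higher in Snail1-KO cells, opposite to Ccn4 and to the higher-level probe set of Ccn2. With TGF-b1 Enpp3 was at 0.85 and Ndrg1 at 0.78, and 0 of the 10 were 2-fold apart, where 1.70% of the genes kept were.

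Genes whose products bind CCN proteins formed the first of the related lists. Of 30 listed receptors and partners 29 were measured and 25 were among the genes kept. After TGF-b1, 6 were at least 2-fold higher and 1 lower in Snail1-WT cells, beside 0.478% and 0.216% of all genes measured, and 5 were higher and 1 lower in Snail1-KO cells, beside 0.681% and 0.234%. The list's median response was 0.18 and 0.21, beside -0.01 and -0.02 over all genes measured. Among the receptors, the integrin subunit gene Itgb3 was higher by 1.28 (Snail1-WT) and 2.02 (Snail1-KO), Itga11 by 1.26 and 2.01, and Itga5 by 0.93 and 1.17. Among the soluble partners, the osteoprotegerin gene Tnfrsf11b was higher by 1.82 and 2.50 and Vegfa by 1.53 and 1.23, and Bmp4 differed by -2.01 and -1.77. Fgf2 was higher by 1.41 and 0.77 and Pdgfb by 1.17 and 0.52. Between genotypes, the proteoglycan gene Dcn was the lower one in Snail1-KO cells (-1.59 untreated, -1.71 treated), and Itgb3 was higher, at 0.85 and 1.59. No other measured gene of this list was 2-fold apart between genotypes, where 1.13% of all genes measured were without and 1.17% with TGF-b1.

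The YAP, TAZ, TEAD and serum response factor machinery, which drives Ccn1 and Ccn2 in many cells, had 21 of 22 genes measured. None was 2-fold apart after TGF-b1, where 0.478% of all genes measured were higher and 0.216% lower in Snail1-WT cells and 0.681% and 0.234% in Snail1-KO cells, so a count of 0 of 21 lies near the background. In untreated cells 16 of the 21 were lower and 5 higher in Snail1-KO than in Snail1-WT cells, with a median of -0.32 beside 0.01 over all genes measured, and with TGF-b1 14 were lower, with a median of -0.21 beside -0.02. Yap1 alone was 2-fold lower, at -1.30 and -1.17, where 1.13% and 1.17% of all genes measured were 2-fold apart in either direction, and the mean of its 2 probe sets gave -0.76 and -0.69. The coactivator gene Wwtr1, which encodes TAZ, differed by 0.18 and 0.23. The Yap1 difference had nearly the same size with and without TGF-b1, while those of Ccn1, Ccn4 and the higher-level probe set of Ccn2 did not. Whether Yap1 had a part in the levels of the CCN genes was not tested.

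Other YAP targets had 24 of 25 genes measured. Between untreated genotypes 19 of the 24 were lower in Snail1-KO cells, with a median of -0.36 beside 0.01. With TGF-b1 16 were lower, with a median of -0.10 beside -0.02. None was 2-fold apart between genotypes, where 1.13% of all genes measured were without and 1.17% with TGF-b1, so these counts of 0 lie near the background. After TGF-b1, Foxf2 was higher by 1.09 (Snail1-WT) and 1.38 (Snail1-KO) and Gadd45b by 0.89 and 1.62, and no other gene of the list was 2-fold apart. These are 1 and 2 of 24 genes higher and 0 lower, beside 0.478% and 0.681% of all genes measured that were higher and 0.216% and 0.234% that were lower.

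Early TGF-b targets had 24 of 25 genes measured. In Snail1-WT cells 11 were at least 2-fold higher and 1 lower, beside 0.478% and 0.216% of all genes measured, and in Snail1-KO cells 10 and 1, beside 0.681% and 0.234%. The medians were 0.91 and 0.81 beside -0.01 and -0.02 over all genes measured. Skil was higher by 2.62 and 3.31, Pmepa1 by 2.51 and 3.06, Smad7 by 1.51 and 1.80 and Bhlhe40 by 1.37 and 1.68. Rgs4 was higher by 1.45 and 2.09, Ldlrad4 by 1.43 and 1.33, Klf10 by 1.32 and 1.33, and Smad6 by 1.14 and 1.84. Ltbp2 was higher by 1.13 and 1.28, Junb by 1.13 and 1.33, and Il11 by 1.14 and 0.73. The repressor gene Snai2 differed by -1.13 and -0.88 and Angptl4 by -0.61 and -1.04. The response of Snail1-KO cells minus that of Snail1-WT cells was above 0 for 18 genes of this list and below 0 for 6. Its median was 0.23 beside -0.0002 over all genes measured, with Id2 at 1.21 and Skil at 0.70. Between untreated genotypes the list's median was -0.17, 18 of 24 being lower in Snail1-KO cells, and in treated cells 0.14, 10 being lower, beside 0.01 and -0.02. Only Snai1, at -1.60 and -2.29, was 2-fold apart between genotypes in this list, where 1.13% and 1.17% of all genes measured were. The untreated differences of Ccn1, Ccn4 and the higher-level probe set of Ccn2, from -1.06 to -0.93, compare with a range from -0.64 (Id2) to 0.52 (Tgfbi) over the 23 other genes of this list, Snai1 left out. Ccn5, at -0.53, and Ccn3, at -0.05, lay inside that range, and the lower-level probe set of Ccn2, at 0.77, lay above it. Low untreated Snail1-KO levels were not particular to the CCN genes. The genes of nearest pattern named above, picked on these same values, ran from -1.27 (Pdzrn3) to -0.14 (Skil) in this comparison. Boc was at -0.89, Has2 at -0.88 and Il6 at -0.85.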

How the data were processed

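RNA of 4 mouse cell samples was measured on 1 Affymetrix array each. The RNA carried a biotin label from the WT PLUS kit, per the labels' protocols. RMA, run by the authors in R 3.1.1 according to the submitters' processing notes, gave the deposited log2 values, which were used without change. Quantile steps of this kind remove a shift shared by most genes. For this RMA step the sources used here name no genome build or annotation. Precision is limited by the number of arrays, which have no depth.

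Groups came from the sample descriptions. The platform annotation gave 1 symbol to 23521 of 41345 probe sets and several to 1814, and 16010 were unnamed here. By Entrez identifier 23328 of the first kind were found in RefSeq (GRCm38.p6), 0 with a changed symbol. Of several probe sets for a gene the one with the highest mean was taken, and the upper 60% by mean were kept. Differences of log2 values were counted at 2-fold. The yardstick SD is the scaled median absolute deviation of the difference of responses among the 500 genes nearest in level, divided by the square root of 2, and was tested on simulated data. Named genes are the members, Ccn6, Snai1, the 5 nearest patterns of Ccn1, Ccn2 and Ccn4, and list genes at least 2-fold apart in any of the 4 comparisons. Wwtr1, Lepr, Nt5e, Pdgfrb, Ptprc, Cd14, Cd68, Pecam1, Id2, Tgfbi, Enpp3 and Ndrg1 were named after their values were seen. The members and lists were chosen with earlier results of these data known. Alternatives were median centring, cyclic loess (limma 3.58.1, R 4.3.3), trimmed mean scaling, a 1.5-fold threshold, no filter, a 40% filter and the mean of probe sets. Other work used Python 3.11.15, numpy 2.4.6, pandas 2.3.3, scipy 1.17.1 and matplotlib 3.10.9.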

Additional observations from a re-analysis of the deposited data

Results flagged for a closer look

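The response to TGF-b1 had opposite signs in the 2 genotypes for 2 of the genes named by rule, Ccn6 and Yap1. Ccn6 was at 0.16 (Snail1-WT) and -0.18 (Snail1-KO), a difference of -0.33, but each response was under 1 yardstick SD and the gene lay below the lowest mean kept. Yap1 was at -0.04 and 0.09, a difference of 0.13. Opposite signs were also seen in genes named after their values were seen. Id2 was at -0.73 (Snail1-WT) and 0.48 (Snail1-KO), a difference of 1.21. Enpp3 was at 0.20 and -0.09, Ndrg1 at 0.13 and -0.14, and Lepr, a gene below the lowest mean kept, at -0.03 and 0.33. None of these differences was tested, since each group had 1 array.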

How the results depend on the processing

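Under median centring, cyclic loess and trimmed mean scaling, the 30 differences of the 6 Ccn probe sets moved by at most 0.05, 0.05 and 0.01 and none by more than its yardstick SD. The sign changed for 1, the difference of responses of Ccn3 (-0.02) under median centring. With the mean of its 2 probe sets Ccn2 gave responses of 1.95 and 2.09, an untreated genotype difference of -0.14 and a difference of responses of 0.13, against 2.84, 3.82, -1.06 and 0.98 for the higher-level probe set. This follows from averaging probe sets that disagree. At 1.5-fold in place of 2-fold, 581 and 684 genes kept were apart in the responses of Snail1-WT and Snail1-KO cells (131 and 174 at 2-fold), 951 and 1083 between genotypes without and with TGF-b1 (209 and 226) and 476 in the difference of responses (45). The last count was 197 with no filter and 4 with a 40% filter. In the order of these 5 comparisons, with 2-fold counts in parentheses, 1.5-fold counts were 9, 8, 10, 7 and 5 for receptors and partners (7, 6, 1, 2, 0), 1, 1, 3, 1 and 0 for the YAP machinery (0, 0, 1, 1, 0), 3, 5, 3, 1 and 2 for YAP targets (1, 2, 0, 0, 0) and 19, 16, 2, 6 and 6 for early TGF-b targets (12, 11, 1, 1, 1). These list counts run over the genes measured, while the totals above are of the 13308 genes kept. The 1.5-fold share of all genes measured was not counted, so the rise of the list counts has no background beside it. With the mean of probe sets, 0 genes of the YAP machinery were 2-fold apart between genotypes. No replicate could be left out and no test was run. An additive fit of genotype and TGF-b1 over the 4 arrays was not run, since its error would be the difference of responses, which is itself one of the comparisons and gives the yardstick.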
